A study of Homo sapiens with 6 samples.

Results

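The genes described form the core of the integrated stress response: the 4 kinases of eukaryotic initiation factor 2 (eIF2), *EIF2AK1* (HRI), *EIF2AK2* (PKR), *EIF2AK3* (PERK) and *EIF2AK4* (GCN2), the eIF2 subunit genes *EIF2S1* (alpha), *EIF2S2* (beta) and *EIF2S3* (gamma), *ATF4*, and the phosphatase subunit genes *PPP1R15A* (GADD34) and *PPP1R15B* (CReP). They were chosen by symbol, not by their values, though with earlier results of these data known. All 10 were found among the 29806 genes of the deposited counts. LNCaP cells are an established human line of androgen-responsive prostate cancer. The groups were 3 dishes of wild type LNCaP parental cells and 3 dishes of LNCaP PACT knockout (PACT KO) cells, in which *PRKRA*, the gene that encodes PACT, had been targeted with CRISPR/Cas9. All dishes were kept in RPMI-1640 with fetal bovine serum and harvested 48 h after plating. Per the study, the PACT KO cells were 1 clone, identified by PCR as a homozygous knockout and checked by sequencing and PACT western blot. The replicates therefore measure differences between dishes, and a difference of this clone from the parental line cannot be told apart from the loss of PACT. PolyA RNA was sequenced, which measures mRNA and neither protein nor its phosphorylation.

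The factor eIF2 delivers the initiator tRNA to the ribosome, and its phosphorylation slows the start of most protein synthesis. Vertebrate cells hold a small family of kinases that add this phosphate: HRI, which responds to haem deficiency and mitochondrial stress, PKR, which is activated by double-stranded RNA, PERK, which sits in the endoplasmic reticulum membrane, and GCN2, which responds to a lack of amino acids. Phosphorylated eIF2 blocks its own exchange factor, eIF2B, while translation of the transcription factor ATF4 rises, and protein phosphatase 1 carried by GADD34 or CReP removes the phosphate. PACT is a double-stranded RNA binding protein that activates PKR, so the mRNA levels of these genes were compared between LNCaP cells with and without PACT.

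The LNCaP parental libraries held 21835590 to 24940838 reads counted on genes, and the PACT KO libraries held 19930060 to 24484415. Mitochondrial genes took 1.97% to 2.01% of the reads of LNCaP parental libraries and 2.5% to 2.9% of those of PACT KO, and the part of this difference in the results was not tested. *PRKRA*, counted at 882, 809 and 866 reads in LNCaP parental libraries, had 291, 331 and 243 in those of PACT KO, and its log2 fold change (log2FC, PACT KO over LNCaP parental) was -1.57 with a standard error (SE) of 0.07. All 10 prostate luminal markers were detected, with a summed level of 4695 to 4722 CPM across LNCaP parental libraries and 4836 to 4914 CPM across those of PACT KO, where CPM is the count of a gene scaled to the TMM-adjusted total of its library. Of 13 markers of basal cells, fibroblasts, leukocytes and endothelium, 5 had 0 reads (*KRT5*, *COL1A2*, *CD3E*, *PECAM1* and *CDH5*). The summed level of the fibroblast markers, nearly all of it *COL1A1*, was 27.4 to 30.3 CPM without and 38.7 to 43.7 CPM with the knockout, and that of the endothelial markers, all of it *VWF*, was 24.3 to 26.997 and 15.6 to 17.7 CPM. The part of these markers in the results was not tested.

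The kinases act on a shared site in the alpha subunit. The coding bases around it are shown because every kinase below has this substrate. They are codons 43 to 61 of *EIF2S1* in GENCODE release 29, 5′ to 3′, with the codon of the phosphorylated serine (codon 52 counted from the start codon) in capitals.
EIF2S1 codons: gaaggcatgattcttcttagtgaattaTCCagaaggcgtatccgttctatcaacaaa

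The promoters of the kinases that rose and of the phosphatase subunits are shown with the regulatory motifs found in them. Each run is 270 bases, from 250 before the RefSeq start of the gene to 20 after it (GRCh38.p14, read on the gene's strand), and capitals mark motifs found on either strand. The search covered 300 bases of each promoter, 30 more at the downstream end than are shown. The motifs were the interferon-stimulated response element (a pair of GAAA runs on either side of any 2 bases), the cAMP response element TGACGTCA, the ATF-C/EBP composite element TGATGNAA, the endoplasmic reticulum stress response element, the CCAAT box and the NRF1 site. The CCAAT box is also the first part of the stress response element.
EIF2AK2, chr2:37156961-37157230, minus strand: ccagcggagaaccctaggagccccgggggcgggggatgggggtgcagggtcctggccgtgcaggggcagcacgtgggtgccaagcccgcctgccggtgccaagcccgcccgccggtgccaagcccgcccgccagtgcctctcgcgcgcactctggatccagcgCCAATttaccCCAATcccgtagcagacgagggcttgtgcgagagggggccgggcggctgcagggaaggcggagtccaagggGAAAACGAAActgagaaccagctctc
EIF2AK3, chr2:88627445-88627714, minus strand: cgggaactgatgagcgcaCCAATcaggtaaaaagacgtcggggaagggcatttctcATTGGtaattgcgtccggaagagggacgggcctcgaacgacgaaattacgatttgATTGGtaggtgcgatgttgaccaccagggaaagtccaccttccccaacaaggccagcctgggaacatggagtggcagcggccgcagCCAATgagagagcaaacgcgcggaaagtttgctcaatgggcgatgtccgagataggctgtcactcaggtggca
PPP1R15A, chr19:48872171-48872440, plus strand: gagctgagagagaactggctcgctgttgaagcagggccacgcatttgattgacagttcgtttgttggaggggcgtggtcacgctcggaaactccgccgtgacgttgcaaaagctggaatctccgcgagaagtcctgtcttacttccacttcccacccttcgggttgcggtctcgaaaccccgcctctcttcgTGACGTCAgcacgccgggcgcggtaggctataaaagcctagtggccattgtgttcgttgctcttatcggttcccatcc
PPP1R15B, chr1:204411798-204412067, minus strand: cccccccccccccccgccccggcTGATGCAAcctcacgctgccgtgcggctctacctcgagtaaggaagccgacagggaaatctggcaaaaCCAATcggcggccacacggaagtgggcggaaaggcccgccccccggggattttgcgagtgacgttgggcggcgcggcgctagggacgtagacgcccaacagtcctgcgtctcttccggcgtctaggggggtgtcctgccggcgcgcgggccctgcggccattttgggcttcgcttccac

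RefSeq promoters were at hand for 8 of the 10 genes, and those of *EIF2AK1* and *EIF2S2* were not. An interferon-stimulated response element was found in *EIF2AK2*, 6 bases before the start and running across it, and in 3.57% of all 35116 promoters, each searched over 300 bases. *EIF2AK3* held 4 CCAAT boxes, *EIF2AK2* 2 and *PPP1R15B* 1, and 34.6% of all promoters held at least 1. *PPP1R15A* had a cAMP response element 58 bases before the start, as did 1.85% of promoters, and *PPP1R15B* had an ATF-C/EBP composite element 227 bases before it, as did 3.62%. The stress response element and the NRF1 site were found in 0 of the 8 promoters. These matches describe letters in a window and not bound sites.

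Among the 10 genes, mRNA of the kinases PKR and PERK rose in PACT KO cells, while mRNA of GCN2, of every eIF2 subunit and of CReP fell. Changes were small, with log2FC from -0.18 to 0.24, and no gene reached 1.5-fold. Counts were normalized by TMM and compared with edgeR's quasi-likelihood test over 14462 genes, 2-sided, with Benjamini-Hochberg adjustment (FDR), and a gene was called at an FDR under 0.01. By this rule 5 genes were lower and 2 higher, where 18.8% of all genes tested were lower and 15.3% higher, 34.2% in all. All 10 genes were tested. Their median log2FC was -0.09, against 0.00 over all genes tested. The groups did not overlap in 8 of the 10, with 6 lower and 2 higher, where this held for 52.2% of all genes, 27.2% lower and 25.1% higher. Past both thresholds of the study (FDR under 0.01 and 1.5-fold) there were 0 of the 10, where 5.72% of all genes passed. That count was also 0 with DESeq2, limma-voom and edgeR's likelihood ratio test, where the absolute log2FC was at most 0.24. A looser p-value could not change it, because no gene reached 1.5-fold in any of them. Fewer cells with a transcript and less of it per cell cannot be told apart in these bulk libraries.

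**Figure D1:**
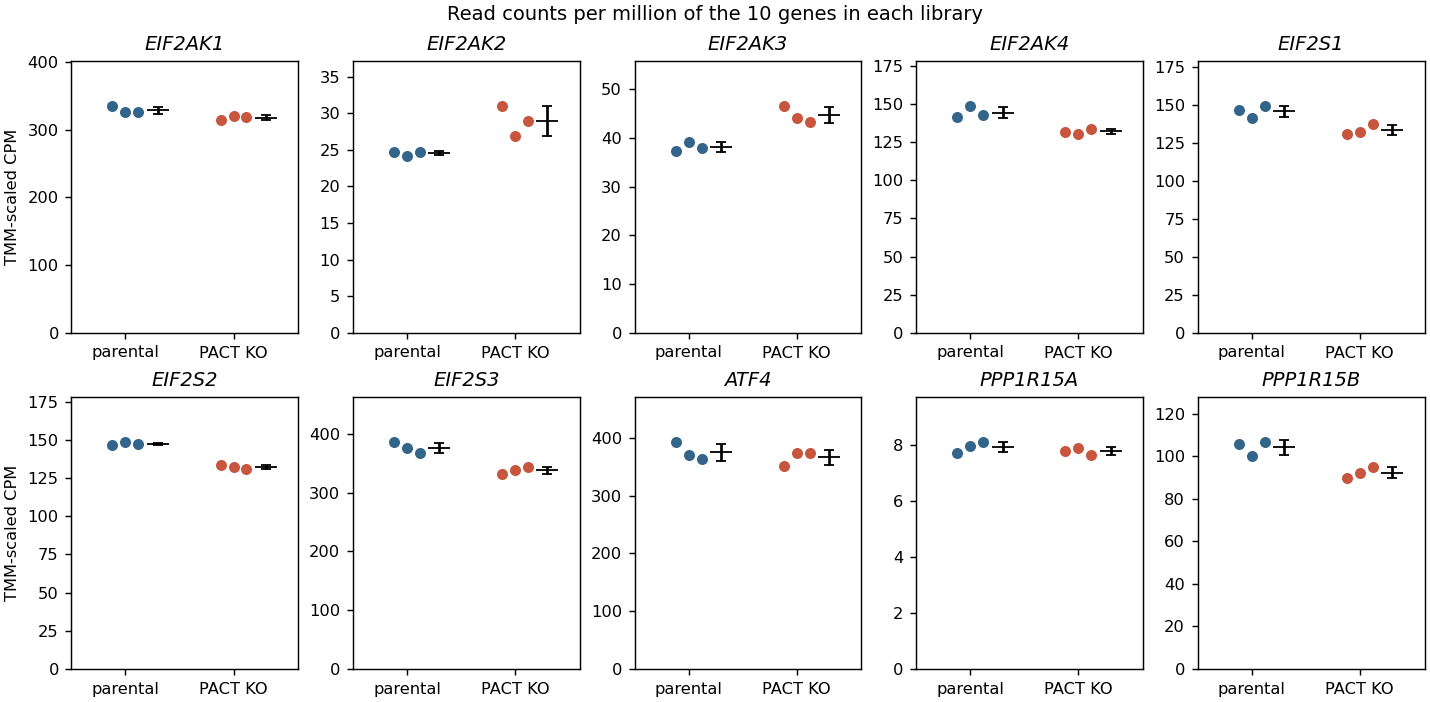
Level of each of the 10 genes as TMM-scaled CPM (y axis, from 0) in the 3 LNCaP parental and 3 PACT KO libraries, with points for libraries and bars for the mean and SD. The PACT KO points lie above the LNCaP parental points for *EIF2AK2* and *EIF2AK3*, overlap with them for *ATF4* and *PPP1R15A*, and lie below them in the other 6 panels.

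*EIF2AK2* (NCBI Gene number 5610, chr2:37099210-37157065 in GRCh38) encodes PKR, the kinase that PACT activates. Its reads numbered 561, 523 and 613 in replicates 1, 2 and 3 of LNCaP parental cells and 764, 653 and 585 in those of PACT KO cells, or 24.7, 24.2 and 24.8 CPM against 30.9, 26.8 and 28.9 CPM. Each PACT KO library was above each LNCaP parental library, and PACT KO replicate 1 was the highest. The mean rose by 17.7%, from 24.5 ± 0.313 to 28.9 ± 2.04 CPM (SD, n = 3 each), which is a log2FC of 0.24 (± 0.06 SE, FDR = 0.00172, edgeR). This call depended on single libraries. Without PACT KO replicate 1 the log2FC was 0.18 (FDR = 0.0177), without LNCaP parental replicate 1 it was 0.24 (FDR = 0.0104) and without LNCaP parental replicate 2 it was 0.22 (FDR = 0.0158).

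*EIF2AK3* (9451, chr2:88556741-88627576) encodes PERK. Its level was 37.2, 39.2 and 37.9 CPM in LNCaP parental and 46.5, 44.1 and 43.3 CPM in PACT KO libraries. The groups stood apart, with the lowest PACT KO library above the highest LNCaP parental library. The log2FC was 0.23 (± 0.04 SE, FDR = 4.29e-05, edgeR), a rise of 17.3%, and the call held with each library left out in turn. An antisense gene, AC104134.1, shares 14.4% of the exon bases of *EIF2AK3*, and whether reads were counted by strand is not given in the sources used here.

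The other kinases did not rise. *EIF2AK4* (440275, chr15:39934146-40035591), which encodes GCN2, was at 141, 148 and 143 CPM in LNCaP parental and 132, 130 and 134 CPM in PACT KO libraries, and every PACT KO library was lower. The log2FC was -0.13 (± 0.03 SE, FDR = 5.89e-04, edgeR), so its level fell by 8.51%. *EIF2AK1* (27102, chr7:6022244-6059230), which encodes HRI, was at 335, 326 and 326 CPM against 314, 321 and 318 CPM. Its PACT KO libraries were all below the LNCaP parental ones, but the difference did not pass the test, with a log2FC of -0.05 (95% interval -0.10 to 0.00, FDR = 0.126). *AIMP2*, on the opposite strand, shares 9.59% of the exon bases of *EIF2AK1* and had a log2FC of -0.21 (± 0.04 SE).

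Ratios of counts within a library need no scaling between libraries, and they were used to compare the kinases with each other. The log2 ratio of *EIF2AK2* to the geometric mean of the other kinases was -2.29, -2.35 and -2.29 in LNCaP parental and -2.01, -2.19 and -2.08 in PACT KO libraries. It was higher in PACT KO cells by 0.22 (mean -2.31 ± 0.04 against -2.09 ± 0.09, SD, n = 3 each), and the groups did not overlap (exact permutation test, 2-sided, p = 0.10, the smallest that 3 dishes against 3 allow). Of the 6 kinase pairs, the ratio of *EIF2AK2* to *EIF2AK3* was the only one in which the groups overlapped, with a difference of 0.01 on the log2 scale (exact permutation test, p = 0.80). *EIF2AK3* was higher relative to *EIF2AK4* by 0.36 and relative to *EIF2AK1* by 0.28, and *EIF2AK2* by 0.36 and 0.28. *EIF2AK1* was higher relative to *EIF2AK4* by 0.08. After Benjamini-Hochberg adjustment over all 11 ratios computed, p was 0.157 for each of the 7 ratios with separate groups, so none passed a threshold of 0.05, which this design cannot reach.

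**Figure D2:**
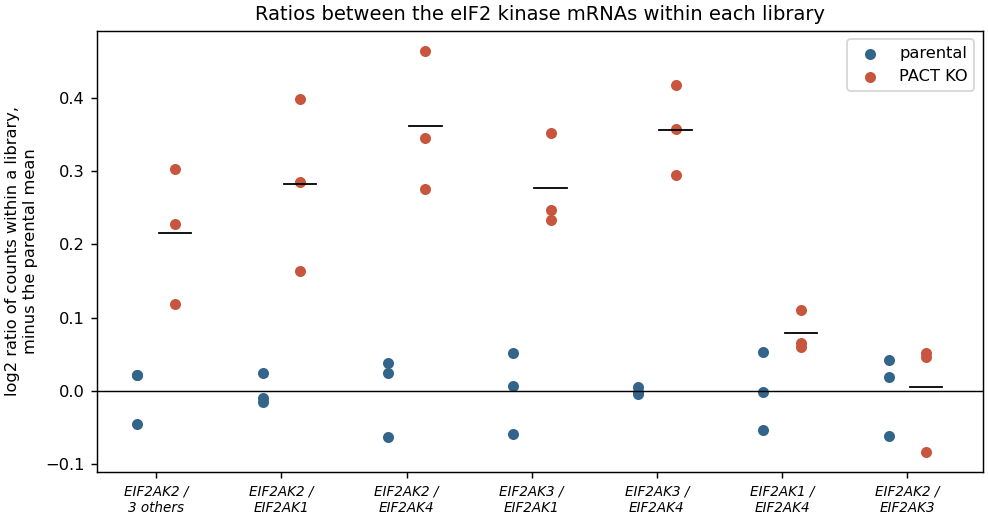
Log2 ratio of read counts between kinase mRNAs within each library (y axis), set to 0 at the LNCaP parental mean, for *EIF2AK2* against the other kinases and for the 6 pairs, with a line at the PACT KO mean. The PACT KO points are above the LNCaP parental points except in the ratio of *EIF2AK2* to *EIF2AK3*, where they overlap.

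The eIF2 complex holds its alpha, beta and gamma subunits in equal numbers, and mRNA of all 3 fell in PACT KO cells, with differences of -8.53% for alpha, -10.4% for beta and -10.2% for gamma. *EIF2S1* (1965, chr14:67359997-67386516), the phosphorylated alpha subunit, was at 146, 141 and 149 CPM in LNCaP parental and 131, 132 and 137 CPM in PACT KO libraries, and the groups did not overlap. Its log2FC was -0.13 (± 0.03 SE, FDR = 7.05e-04, edgeR), and without LNCaP parental replicate 3 it was -0.11 and just missed the threshold (FDR = 0.0110).

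*EIF2S2* (8894, chr20:34088298-34112332), the beta subunit, was at 147, 148 and 148 CPM against 133, 132 and 131 CPM. The spread within each group was at most 1.17 CPM (SD), the narrowest of the subunits, and the log2FC was -0.16 (± 0.03 SE, FDR = 2.46e-05, edgeR). *EIF2S3* (1968, chrX:24054716-24077971), the gamma subunit that binds GTP and the initiator tRNA, was at 386, 375 and 367 CPM against 331, 340 and 343 CPM. All its PACT KO libraries were lower, with a log2FC of -0.15 (± 0.03 SE, FDR = 9.33e-06, edgeR). Both have processed copies elsewhere in the genome with similar sequence. None of the copies found by symbol has a row in the deposited counts, and the authors' counting could have left out reads that match them.

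The subunits were compared with each other within libraries. The log2 ratio of *EIF2S1* to *EIF2S2* differed between the groups by 0.03, that of *EIF2S1* to *EIF2S3* by 0.03 and that of *EIF2S2* to *EIF2S3* by -0.00, and the groups overlapped in all 3 (exact permutation tests, p = 0.60, 0.50 and 1). Differences between the falls of the subunits were thus not detectable with 3 dishes a group. *ATP6V1D*, on the opposite strand, shares 4.76% of the exon bases of *EIF2S1* and had a log2FC of 0.09 (± 0.04 SE), opposite in sign to that of *EIF2S1*.

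*ATF4* (468, chr22:39519695-39522685) encodes the transcription factor whose translation rises when eIF2 is phosphorylated. Its mRNA was at 392, 370 and 362 CPM in LNCaP parental and 351, 374 and 374 CPM in PACT KO libraries. The groups overlapped, and PACT KO replicate 1 was the lowest of the 6. The log2FC was -0.03 (95% interval -0.09 to 0.03, FDR = 0.375, edgeR), and it was 0.00 and above zero without that library, so no direction is given. Processed copies of *ATF4* are annotated as well, also without a row in the deposited counts.

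Protein phosphatase 1 is directed to eIF2 by either of a pair of regulatory subunits. *PPP1R15B* (84919, chr1:204403387-204411791), the constitutive subunit CReP, was at 106, 100.3 and 107 CPM in LNCaP parental and 89.9, 92.1 and 95.01 CPM in PACT KO libraries. The groups were apart and the level fell by 11.5%, the largest fall among the 10 genes (log2FC -0.18 ± 0.03 SE, FDR = 4.58e-05, edgeR). *PPP1R15A* (23645, chr19:48872392-48876057), the stress-induced subunit GADD34, was the least abundant in reads, with 175, 172 and 200 in LNCaP parental and 192, 192 and 154 in PACT KO libraries. At 7.91 ± 0.188 CPM and 7.76 ± 0.139 CPM (SD, n = 3 each) the groups overlapped. The 95% interval of its log2FC ran from -0.22 to 0.17 (FDR = 0.844, edgeR), wide enough to hold the change of *PPP1R15B*, and its sign turned with library totals alone as the scaling. The log2 ratio of *PPP1R15A* to *PPP1R15B* was -3.77, -3.65 and -3.72 in LNCaP parental and -3.53, -3.54 and -3.64 in PACT KO libraries, higher by 0.15 in PACT KO cells with groups just apart (exact permutation test, p = 0.10, the smallest possible).

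Levels can be compared between genes only roughly once they are scaled to length, because the value depends on the length chosen. Scaled to kilobases of exon in GENCODE release 29, *ATF4* was the highest in LNCaP parental cells at 149 ± 6.08 CPM per kilobase (SD, n = 3). *EIF2S3* followed at 108 ± 2.62, *EIF2AK1* at 59.3 ± 0.889, *EIF2S2* at 55.6 ± 0.258 and *EIF2S1* at 25.8 ± 0.671 CPM per kilobase. The subunits of the complex thus spanned a range from 25.8 to 108. Below them were *PPP1R15B* at 19.9, *EIF2AK4* at 12.1, *EIF2AK3* at 7.01, *PPP1R15A* at 2.56 and *EIF2AK2* at 2.28 CPM per kilobase. HRI mRNA was the most abundant of the kinases and PKR mRNA the least. No neighbours in this order overlapped in the LNCaP parental libraries. In PACT KO cells *EIF2AK2*, at 2.69 ± 0.189, passed *PPP1R15A*, at 2.51 ± 0.0449 CPM per kilobase, but their libraries overlapped. With the longest coding transcript as the length, *EIF2AK4* was at 26.2 and *EIF2S1* at 32.4 CPM per kilobase in LNCaP parental cells. *PPP1R15B* stayed at 19.9, so *EIF2AK4* and *PPP1R15B* changed places.

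The other genes of the pathway were taken from 4 lists compiled from general knowledge, but with earlier results of these data known. They held 58 genes, of which 57 were tested. By the same call rule in edgeR 32 of them were lower and 4 higher, where 18.8% and 15.3% of all genes were, with a median log2FC of -0.16. Most of the 32, 24 genes, are on the list of ATF4 targets. The nearest to the members are the factors of the eIF2 cycle, where 5 of 9 (55.6%) were lower and 1 (11.1%) higher with a median of -0.13. Among the subunits of eIF2B, the exchange factor that phosphorylated eIF2 blocks, 4 fell. *EIF2B3* fell from 26.5 ± 0.50 to 21.8 ± 0.443 CPM (SD, n = 3 each), a log2FC of -0.28 (± 0.06 SE). *EIF2B5*, the catalytic subunit, had -0.19 (± 0.04 SE), *EIF2B4* -0.16 (± 0.04 SE), with overlapping libraries, and *EIF2B1* -0.13 (± 0.04 SE). The remaining subunit, *EIF2B2*, named to complete the complex, had a log2FC of 0.03 (FDR = 0.603). *CDC123*, which assembles the eIF2 complex, was lower by a log2FC of -0.16 (± 0.03 SE). *EIF5*, which stimulates GTP hydrolysis by eIF2, was higher by 0.09 (± 0.03 SE) and was the only gene of this list called higher. All these calls had an FDR of at most 0.00377.

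Of 12 regulators of the kinases, 3 (25%) were lower and 2 (16.7%) higher, near the 18.8% and 15.3% of all genes, with a median of 0.00. *HSPA5* encodes BiP, the chaperone that holds PERK inactive, and rose from 781 ± 19.7 to 1338 ± 61.5 CPM (SD, n = 3 each), a log2FC of 0.78 (± 0.03 SE, FDR = 3.86e-23, edgeR). *DNAJC3*, a co-chaperone known as an inhibitor of PKR and PERK, rose from 40.9 ± 2.70 to 53.6 ± 0.892 CPM, a log2FC of 0.39 (± 0.04 SE, FDR = 2.45e-09). *GCN1*, the partner that activates GCN2 on ribosomes, fell from 338 ± 1.85 to 283 ± 6.23 CPM, a log2FC of -0.25 (± 0.03 SE, FDR = 3.40e-10). *OMA1*, the mitochondrial protease that signals to HRI, had a log2FC of -0.20 (± 0.04 SE). *TARBP2*, which encodes TRBP, a relative of PACT that inhibits PKR, had a log2FC of -0.14 (± 0.04 SE, FDR = 0.00558).

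None of the 3 catalytic subunits of protein phosphatase 1 was called by edgeR, DESeq2, limma-voom or the likelihood ratio test. At an unadjusted p under 0.05 there was 1 in edgeR, *PPP1CC*, named after its value was seen, with a log2FC of -0.07 (FDR = 0.0275).

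**Figure D3:**
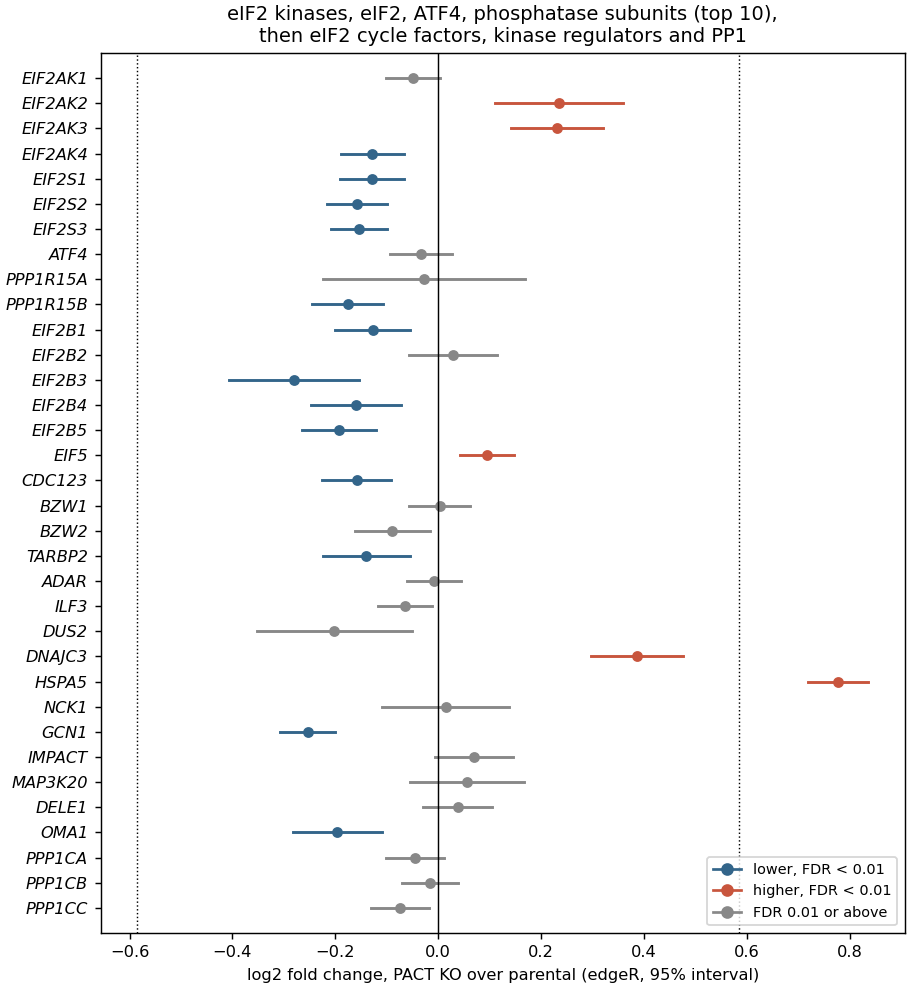
Log2 fold change of PACT KO over LNCaP parental cells (x axis) with its 95% interval for the 10 genes, 9 eIF2 cycle factors, 12 kinase regulators and 3 phosphatase 1 subunits, with colour for the call at an FDR under 0.01 and dotted lines at 1.5-fold. Of the genes drawn, *HSPA5* alone, at 0.78, lies beyond 1.5-fold.

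Although *ATF4* mRNA did not pass the test, 24 of 33 tested genes on a list of ATF4 targets were lower and 1 was higher, with a median log2FC of -0.27 against 0.00 over all genes. The share that was lower was 72.7%, where 18.8% of all genes were lower. The list was drawn up with earlier results of these data known. *FGF21* had too few reads to be tested. *ATF5*, a related transcription factor, had the largest fall of the list, from 72.7 ± 1.85 to 33.7 ± 0.313 CPM (SD, n = 3 each), a log2FC of -1.11 (± 0.04 SE, FDR = 3.33e-23, edgeR). Enzymes of serine and asparagine synthesis fell. *PHGDH* had a log2FC of -0.44 (± 0.03 SE), *PSAT1* of -0.39 (± 0.03 SE) and *ASNS* of -0.48 (± 0.03 SE). *PCK2*, of mitochondrial gluconeogenesis, had -0.49 (± 0.03 SE), *GPT2*, an alanine aminotransferase, -0.46 (± 0.03 SE), *GARS1*, a tRNA synthetase, -0.37 (± 0.03 SE) and *TRIB3*, a pseudokinase that restrains ATF4, -0.55 (± 0.04 SE). *DDIT3*, which encodes the transcription factor CHOP, was picked after its value was seen as the only gene of this list called higher. It went from 31.1 ± 1.46 to 42.1 ± 0.954 CPM, a log2FC of 0.43 (± 0.05 SE, FDR = 1.70e-09).

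**Figure D4:**
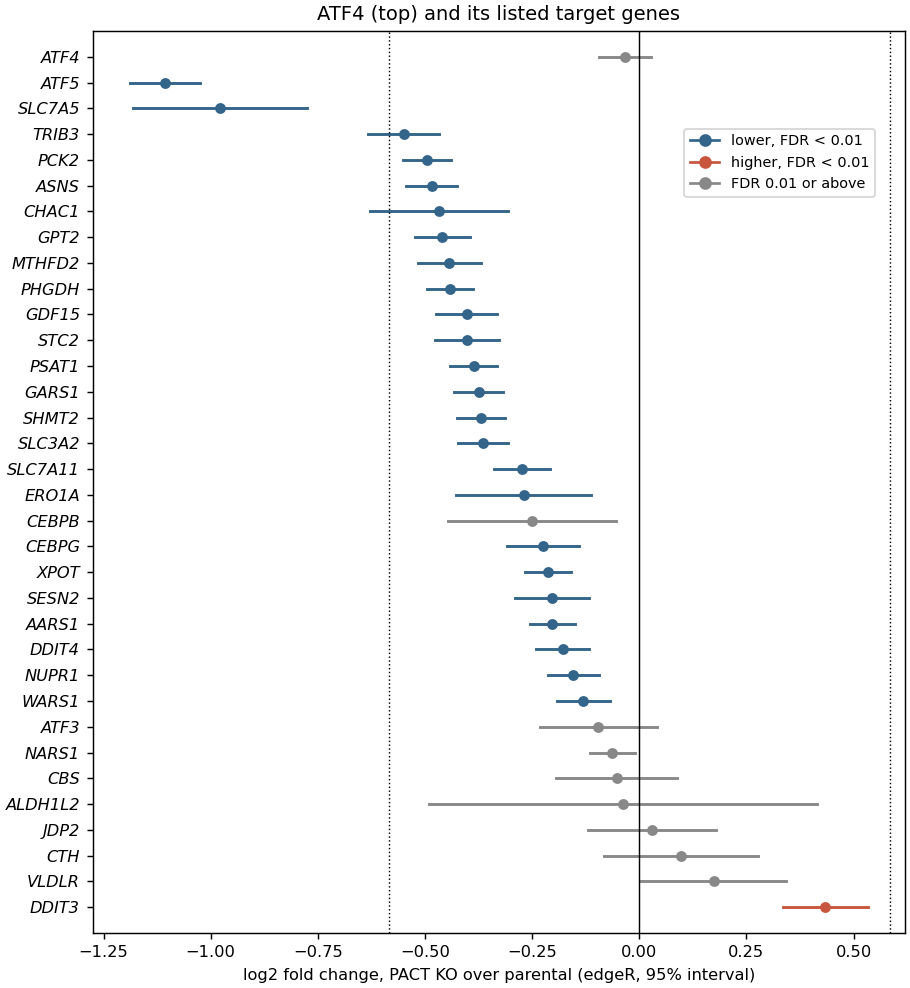
Log2 fold change of PACT KO over LNCaP parental cells (x axis) with its 95% interval for *ATF4* and the 33 tested genes of the ATF4 target list, in order of fold change, with colour for the call at an FDR under 0.01 and dotted lines at 1.5-fold. The interval of *ATF4* spans 0, 24 targets are coloured as lower, and *DDIT3* lies at the right end.

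The 5 tested genes on each side of a member, by position, give its chromosomal surroundings. Of all genes tested, 18.8% were lower and 15.3% higher. Among the 10 around *EIF2S1*, 0 were lower and 6 higher, with a median log2FC of 0.25, while *EIF2S1* itself fell. The medians around *EIF2AK4* and *PPP1R15B*, which also fell, were 0.22 and 0.30. There 2 neighbours were lower and 4 higher around *EIF2AK4*, and 0 lower and 2 higher around *PPP1R15B*. The log2FC of the neighbours ran from -7.62 to 0.91 around *EIF2AK4* and from -0.10 to 0.70 around *PPP1R15B*. Around *EIF2S2* 4 neighbours were lower and 1 higher (median -0.05), and around *EIF2S3* 3 were lower and 2 higher (median 0.01). Around the kinases that rose, the medians were 0.03 for *EIF2AK2*, with 1 lower and 2 higher, and 0.01 for *EIF2AK3*, with 0 lower and 1 higher.

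As a description, the 3 genes whose log2 CPM followed *EIF2AK2* most closely over the 6 libraries, among the 9958 genes averaging 10 CPM or more, were *NIPBL-DT*, *CYB5D2* and *SRA1* (Pearson r of 0.995, 0.993 and 0.993). For *ATF4* they were *PUS3*, *RMC1* and *STK25* (0.985, 0.977 and 0.972). The libraries share their group and depth across genes, and no test is attached to these values.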

How the data were processed

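The authors deposited raw read counts per NCBI Gene number for 6 libraries. Per the labels, bcl2fastq 2.20.0.422, STAR 2.5.3a, StringTie 1.3.3 and featureCounts 1.5.3 were used on build hg38, with no roles or settings, and the strand setting and annotation are not given in the sources used here. A row without a gene number, 0.0688% to 0.0708% of a library, was left out. Symbols came from RefSeq (27540 of 29806). TMM scaling, filterByExpr and the quasi-likelihood test of edgeR 4.0.16 (R 4.3.3) followed the study's edgeR and TMM. The standard error is the absolute log2 fold change over the square root of F. The test was checked on simulated counts. Named are all members, *PRKRA*, and from each list the called genes, at most 8 by p. The members, lists and tests were chosen with earlier results of these data known, so no test is adjusted over a list alone. Alternatives were DESeq2 1.42.0, limma-voom (limma 3.58.1), the likelihood ratio test, glmTreat, other scalings, filters and an FDR under 0.05, a replicate block and leaving out each library. Replicate pairs had 1.55 to 1.93 times the variance of sampling noise in LNCaP parental cells and 2.02 to 3.58 times in PACT KO cells. The pairs with PACT KO replicate 1 were the highest, at 3.58 and 2.91. P-values measure the spread between dishes only. Ratios added 0.5 to counts (scipy 1.17.1).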

Additional observations from a re-analysis of the deposited data

How the results depend on the processing

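Each of the 10 genes was refitted under 15 alternatives, and 144 of the 150 values kept their direction and their side of the threshold. The 5 genes called lower and 2 called higher were as many under DESeq2, limma-voom, the likelihood ratio test, other scalings, other filters and an FDR under 0.05. Leaving out 1 library at a time gave 4 to 5 lower and 1 to 2 higher, the exceptions being *EIF2AK2* and *EIF2S1* as given above. Signs turned for values that had not passed the test: the log2FC of *ATF4* ran from -0.0545 to 0.00126 over the left-out libraries and was above zero without PACT KO replicate 1, and that of *PPP1R15A* was 0.00172 with library totals alone. The count past 1.5-fold was 0 under every alternative it was computed for, glmTreat included, and it was not computed at an FDR under 0.05. In the pathway lists, 28 to 38 genes were lower and 3 to 4 higher. Same-numbered replicates did not deviate together (correlations of -0.09, 0.00 and -0.09), so they share only a number. With the replicate number as a block, 5 of the 10 genes were lower, 2 higher and 0 past 1.5-fold, and 31 pathway genes were lower and 4 higher. The log2 difference in the ratio of *EIF2AK2* to the other kinases was 0.17 to 0.26 with each library left out, and that of *PPP1R15A* to *PPP1R15B* 0.12 to 0.18. Among the 10 genes, *PPP1R15A* had the fewest reads and the widest 95% interval.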
